A study of Homo sapiens with 18 samples.

Results

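The genes described here are 9 members of the human major histocompatibility complex (MHC) class I antigen presentation pathway: the heavy chains HLA-B, HLA-C, HLA-E and HLA-F, the light chain B2M, the peptide transporter subunits TAP1 and TAP2, tapasin (TAPBP) and the peptidase ERAP1. They were taken by gene symbol and were found, 9 of 9, in each of the 3 deposited gene tables, which list 15543, 31585 and 32555 genes. Poly(A) RNA was sequenced from 18 libraries in 6 groups of 3. SW480-P is the parental culture of SW480, a human colon cancer cell line, and SW480-LM3 is the highly metastatic line selected from it over 3 rounds of spleen injection, so it stands for 1 selected line. EV-XP-LX-2 and EV-XP-NID1-LX-2 are cultures of LX-2, a human hepatic stellate cell line, after 48 h with control vesicles or with vesicles carrying the basement membrane protein nidogen 1 (NID1). LV5-NID1 is SW480 overexpressing NID1 and treated for 72 h with GW4869, an inhibitor of neutral sphingomyelinase that reduces exosome release, and LV5 is the matching control. Whether LV5 cells got GW4869 too is not in the labels, so NID1 overexpression and the inhibitor cannot be told apart in that comparison, and they do not explain the letters XP. They name no batch, and nothing in them tells separate cultures from repeat libraries, so p-values measure only how far these libraries spread, and that spread may be technical.

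In nearly every nucleated cell, the proteasome cuts cytosolic proteins into peptides, and the TAP1-TAP2 transporter carries these into the endoplasmic reticulum. There ERAP1 trims them, and tapasin, calreticulin (CALR) and the disulfide isomerase ERp57 (PDIA3) help load them into a groove formed by an HLA heavy chain paired with B2M. HLA-B and HLA-C are classical molecules read by T cells and killer cell receptors. HLA-E presents leader peptides of other class I chains to the NKG2A receptor of natural killer (NK) cells, and HLA-F is a nonclassical chain that binds some NK receptors. Interferons raise most of these genes through IRF1 and the transactivator NLRC5, and loss of B2M, TAP1 or HLA genes is a known route by which tumours escape T cells.

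Several facts about the libraries bear on all that follows. The SW480-P and SW480-LM3 table held 15504205 to 18965163 recovered reads in each SW480-P library and 15531517 to 16586016 in the SW480-LM3 libraries, while the TPM tables show no depth. Across 14744 genes, mean expression in SW480-P correlated with LV5 at a Spearman rho of 0.886, but SW480-LM3 correlated with SW480-P at 0.793 and with LV5 at 0.694, below its 0.713 with EV-XP-LX-2 stellate cells. SW480-LM3 thus stood further from SW480-P and from LV5 than these stood from each other. It also held far more of the epithelial cadherin gene CDH1, with signals of 148 ± 6.50 against 1.67 ± 0.486 (SD, n = 3), and whether selection alone separates the 2 was not tested. LX-2 libraries carried the stellate transcripts TAGLN (286 ± 4.99 TPM) and COL1A1 (203 ± 4.16 TPM) in controls, while ACTA2 was at 14 ± 0.202 and DCN at 0.357 ± 0.248 TPM. Of the epithelial markers EPCAM was at 0.0867 ± 0.150 TPM there, but KRT18 was at 199 ± 5.43 and KRT8 at 54.8 ± 2.34 TPM. LV5 carried the keratins KRT8 (780 ± 17.2 TPM) and KRT18 (861 ± 15.8 TPM), but its CDH1 was 0.623 ± 0.0751 TPM. The leukocyte marker PTPRC was at 0.0367 ± 0.0635 TPM in EV-XP-LX-2 and 0.02 TPM in each LV5 library. CD68, of the same list, was present and fell, from 43.7 ± 1.99 to 18.6 ± 2.69 TPM after NID1 vesicles (limma adjusted p = 0.000349) and from 3.64 ± 0.588 to 1.35 ± 0.268 TPM in LV5-NID1 (0.00929). The summed leukocyte markers went from 46.6 to 49.5 TPM to 17.99 to 23.9 TPM in the first of these, where CD68 made up most of the sum. They went from 5.01 to 7.18 TPM to 2.88 to 3.69 TPM in the second, and their part in the results was not tested. NID1 itself went from 0.501 ± 0.129 to 46.9 ± 2.21 in SW480-LM3, from 0.02 ± 0.02 to 360 ± 16.6 TPM in LV5-NID1, and from 25.4 ± 0.500 to 20.8 ± 2.44 TPM in LX-2 cells given NID1 vesicles. LV5-NID1 replicate 3 correlated least with its own group, at 0.959 with replicate 1 on the log scale, and results that rest on it are given with and without it.

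Of the 9 genes, 7 lie in the MHC on chromosome 6, B2M lies on chromosome 15 and ERAP1 on chromosome 5. In the GENCODE 29 annotation of GRCh38, B2M spans chr15:44711487-44718877 on the plus strand and ERAP1 spans chr5:96760810-96808100 on the minus strand. HLA-F (chr6:29722775-29738528) and HLA-E (chr6:30489467-30494205) are on the plus strand. HLA-C (chr6:31268749-31272130), TAP2 (chr6:32821833-32838780), TAP1 (chr6:32845209-32853978) and TAPBP (chr6:33299694-33314387) are on the minus strand. The HLA-B model (chr6:31269491-31357188, minus strand) is unusually long there and covers 2640 bases, or 78.1%, of HLA-C. The PSMB9 model on the plus strand contains all 8770 bases of TAP1. The protocol in the labels mentions no strand marking, so reads from overlapping genes may not be separable. The HLA heavy chains are also similar to each other in sequence, and the classical ones are highly variable between people. How the authors assigned reads between such genes is not given in the sources used here. All heavy-chain values below, and above all the split between HLA-B and HLA-C, are therefore uncertain. TAP2 in the SW480-P table is listed under a locus (ENSG00000250264, chr6:32813767-32838822) that contains the usual TAP2 gene and reaches beyond it.

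The promoters of HLA-B, HLA-C and B2M are shown because HLA-C and B2M differ most in SW480-LM3 and HLA-B in LX-2 cells, and because class I promoters share known control elements. They are RefSeq sequences on GRCh38.p14, from 200 to 40 bases before the annotated start, written 5′ to 3′ on the strand of the gene, and 8 of the 9 genes had an entry. Capitals mark, on either strand, the letters GAANNGAAA or GAAANNGAA (spacings of the interferon-stimulated response element), GGGGATTC (the start of the κB element of enhancer A), TGACG (the centre of the X2 box, bound by CREB and ATF factors) and ATTGG (the inverted CCAAT box bound by NF-Y).
HLA-B promoter (chr6:31357219-31357379, minus strand): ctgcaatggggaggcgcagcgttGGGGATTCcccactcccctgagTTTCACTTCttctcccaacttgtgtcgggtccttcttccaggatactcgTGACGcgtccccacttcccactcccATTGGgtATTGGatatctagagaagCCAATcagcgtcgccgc
HLA-C promoter (chr6:31272132-31272292, minus strand): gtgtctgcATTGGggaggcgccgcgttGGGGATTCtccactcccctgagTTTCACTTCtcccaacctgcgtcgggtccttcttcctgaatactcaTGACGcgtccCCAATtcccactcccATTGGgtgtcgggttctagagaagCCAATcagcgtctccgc
B2M promoter (chr15:44711317-44711477, plus strand): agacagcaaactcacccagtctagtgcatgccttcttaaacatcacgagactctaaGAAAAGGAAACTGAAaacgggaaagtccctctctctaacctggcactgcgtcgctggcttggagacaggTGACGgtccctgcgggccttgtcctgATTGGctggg
GGGGATTC begins 177 bases before the start of HLA-B and 173 bases before that of HLA-C, and 0.502% of 27305 promoters hold it in the same window. GAANNGAAA lies on the opposite strand of both, 155 and 151 bases before the start, and 4.21% of promoters hold it. B2M holds 2 overlapping GAAANNGAA matches, which begin 144 and 138 bases before its start, against 4.47% of promoters with any. TGACG occurs 1 time in each of the 3 sequences, 106, 105 and 75 bases before the start, and in 14.9% of promoters. ATTGG matches 3 times in HLA-B, 4 times in HLA-C and 1 time in B2M, where it begins 49 bases before the start, and 25.5% of promoters hold it. HLA-B and HLA-C thus share the order and nearly the spacing of GGGGATTC, GAANNGAAA and TGACG. The matches are descriptions of sequence and say nothing of which factor was bound in these cells.

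TPM values are per length, so levels can be set side by side between genes in the LX-2 and LV5 tables, but not in the SW480-P table. The places of the heavy chains stay uncertain, because how reads were divided between them is not known. As TPM, HLA-B over HLA-C was 62.5, 55.5 and 61.9 in the LV5 libraries. In SW480-P, as signal that is not per length, that ratio was 0.848, 0.767 and 0.798. Why these 2 tables of SW480 cells differ was not tested. By listed value, B2M was the highest of the 9 genes in all 4 groups with TPM values and HLA-B was second. In EV-XP-LX-2 the mean levels were 2773 ± 66.3 TPM for B2M, 678 ± 43.9 for HLA-B, 139 ± 1.85 for HLA-E, 54.0 ± 2.14 for TAP1, 32.9 ± 1.82 for TAPBP, 27.3 ± 2.11 for HLA-F, 23.2 ± 1.07 for ERAP1, 20.5 ± 1.53 for TAP2 and 5.54 ± 0.404 for HLA-C. No 2 neighbours in that order overlapped between libraries. After NID1 vesicles ERAP1 moved above HLA-F, and the libraries of TAPBP and ERAP1, and those of HLA-F and TAP2, overlapped. In LV5 the order was B2M at 3170 ± 177 TPM, HLA-B at 139 ± 13.8, TAP1 at 46.9 ± 1.80, HLA-E at 43.3 ± 2.58, TAP2 at 27.0 ± 1.45, HLA-F at 24.8 ± 0.590, ERAP1 at 11.5 ± 1.17, TAPBP at 5.76 ± 0.487 and HLA-C at 2.32 ± 0.302, and only TAP1 and HLA-E overlapped. In LV5-NID1 the order was the same, and HLA-E overlapped TAP2, which overlapped HLA-F. The tables were normalised separately, so these lines give no test between LX-2 and SW480 cells.

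**Figure D1:**
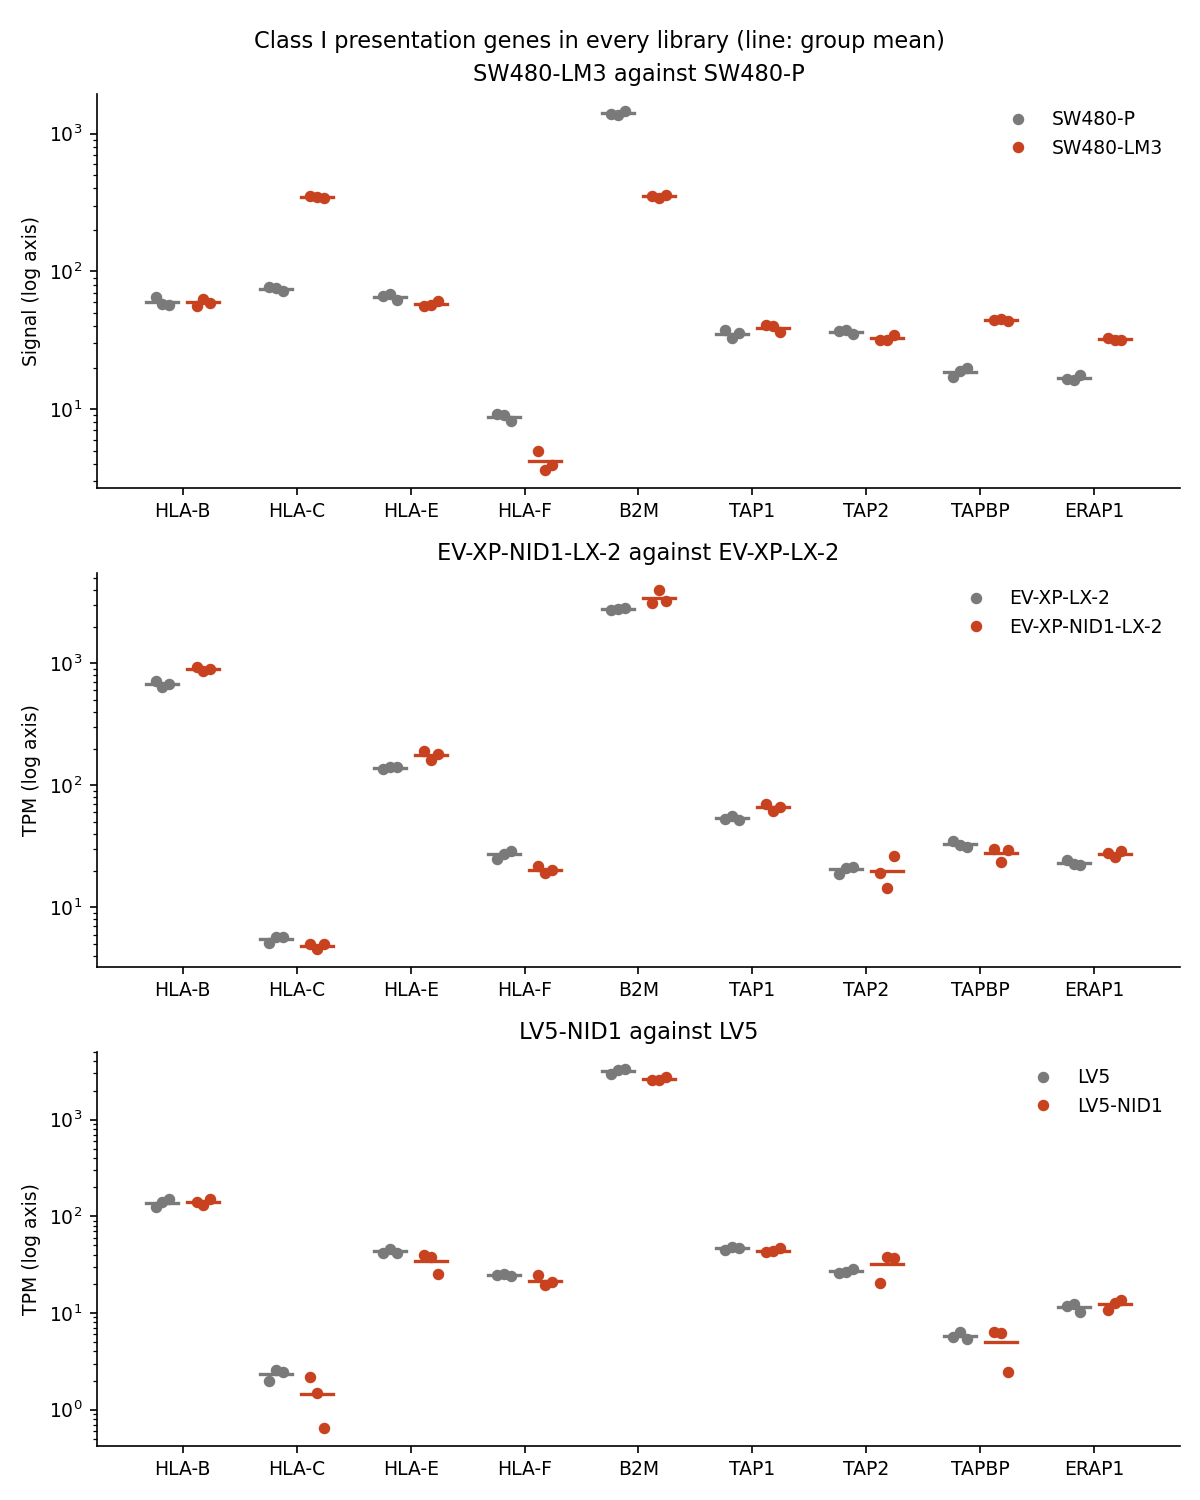
Each of the 9 genes in every library of the 3 tables, on log axes in signal (SW480-P and SW480-LM3) or TPM, with lines at group means. In SW480-LM3 the 3 B2M signals lie between 339 and 359 against 1372 to 1448 in SW480-P, and the HLA-C signals lie between 343 and 352 against 71.8 to 76.9.

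Between SW480-P and SW480-LM3 the class I genes went in both directions. HLA-C, TAPBP and ERAP1 rose, B2M, HLA-F and HLA-E fell, and HLA-B, TAP1 and TAP2 did not pass the test. These 6 calls of 9 stand against a background in which 87.8% of 14527 tested genes were called, 43.9% higher and 43.9% lower, so the count sets the 9 genes apart in no way. The 3 libraries of 1 group lay wholly above those of the other for 3 of the 9 genes and wholly below for 4, against 43.8% and 43.8% of all genes, 87.6% in all. A gene was called where limma's adjusted p was under 0.05, and log2 fold changes are on the scale of log2(value + 1). The median log2 fold change was -0.008 for the 9 genes and -0.004 for all genes tested. In these bulk libraries, fewer cells of a type and less RNA per cell cannot be told apart. In the 3 genes HLA-C, B2M and TAPBP the difference reached 1 on that scale.

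HLA-C had signals of 76.9, 75.1 and 71.8 in the 3 SW480-P libraries and 352, 349 and 343 in SW480-LM3. The 2 groups were far apart, a 4.67-fold difference of means with a log2 fold change of 2.21 (SE 0.04, adjusted p = 7.21e-16). It rested on 1019 to 1290 recovered reads in SW480-P and 5965 to 6329 in SW480-LM3. HLA-B, its classical partner, had signals of 65.2, 57.7 and 57.3 against 56.5, 63.5 and 59.1. The HLA-B libraries overlapped, with a log2 fold change of -0.01 (SE 0.06, adjusted p = 0.906), although scaling each library to its total gave 0.28 (adjusted p = 0.000852). HLA-B over HLA-C therefore went from 0.804 ± 0.0408 to 0.171 ± 0.0108, a ratio to be read only as a change, since the signal is not per length and the 2 gene models overlap.

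The nonclassical chains were lower. HLA-F signals were 9.18, 9.09 and 8.18 in SW480-P and 5.001, 3.63 and 3.91 in SW480-LM3. It fell by 0.93 on the log2 scale (SE 0.13, adjusted p = 9.81e-06), on 116 to 156 reads in SW480-P and 62 to 86 in SW480-LM3. HLA-E, the ligand of NKG2A, had signals of 66.3, 68.2 and 61.5 in SW480-P and 56.0, 57.4 and 61.0 in SW480-LM3, and the groups lay just apart. Its log2 fold change was -0.17 (SE 0.06, adjusted p = 0.0126). That call was lost without SW480-P replicate 2 (adjusted p = 0.0652) or without SW480-LM3 replicate 1 (0.0515), and the direction turned to 0.12 with library-total scaling. The heavy-chain pseudogene HLA-H rose from 1.71 ± 0.459 to 10.5 ± 0.361.

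B2M, the light chain that pairs with class I heavy chains, had signals of 1394, 1372 and 1448 in SW480-P and 351, 339 and 359 in SW480-LM3. All 3 SW480-LM3 libraries lay far below the parental ones, with a ratio of means of 0.249. B2M fell by 2.004 on the log2 scale (SE 0.03, adjusted p = 3.48e-16), on 19583 to 23550 reads in SW480-P and 5794 to 6614 in SW480-LM3. It was called in all 16 alternative settings, with log2 fold changes from -2.03 to -1.42. The HLA-C signal divided by the B2M signal was 0.0551, 0.0548 and 0.0496 in SW480-P and 1.00, 1.03 and 0.957 in SW480-LM3. That ratio does not compare transcript numbers between the 2 genes, but it changed 18.7-fold within the table.

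The genes that supply and load peptide moved less evenly. Tapasin (TAPBP), which bridges the heavy chain to the transporter, had signals of 17.2, 18.8 and 19.95 in SW480-P and 44.0, 44.7 and 43.8 in SW480-LM3. TAPBP rose 2.37-fold (log2 fold change 1.21, SE 0.07, adjusted p = 5.92e-10), with no overlap between the groups. ERAP1, the trimming peptidase, had 16.4, 16.1 and 17.8 against 32.9, 31.7 and 31.7 and rose 1.91-fold (log2 fold change 0.90, SE 0.08, adjusted p = 2.81e-08). The transporter subunits did not pass. TAP1 had signals of 37.4, 32.9 and 35.4 against 40.8, 39.96 and 36.3, which overlapped (log2 fold change 0.14, SE 0.07, adjusted p = 0.0667). TAP2 had 36.6, 37.5 and 34.8 against 32.0, 31.8 and 34.7, just apart (log2 fold change -0.14, SE 0.07, adjusted p = 0.0569). Both sat near the threshold: TAP1 was called higher in 3 of 16 alternative settings and TAP2 was called lower in 4. With library-total scaling TAP1 reached 0.42 (adjusted p = 4.37e-05) and TAP2 turned to 0.14 (adjusted p = 0.0604). Leaving out 1 library made TAP1 a call without SW480-P replicate 1 (adjusted p = 0.0359) or SW480-LM3 replicate 3 (0.0295), and TAP2 a call without SW480-P replicate 3 (0.0373) or SW480-LM3 replicate 3 (0.0364).

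**Figure D2:**
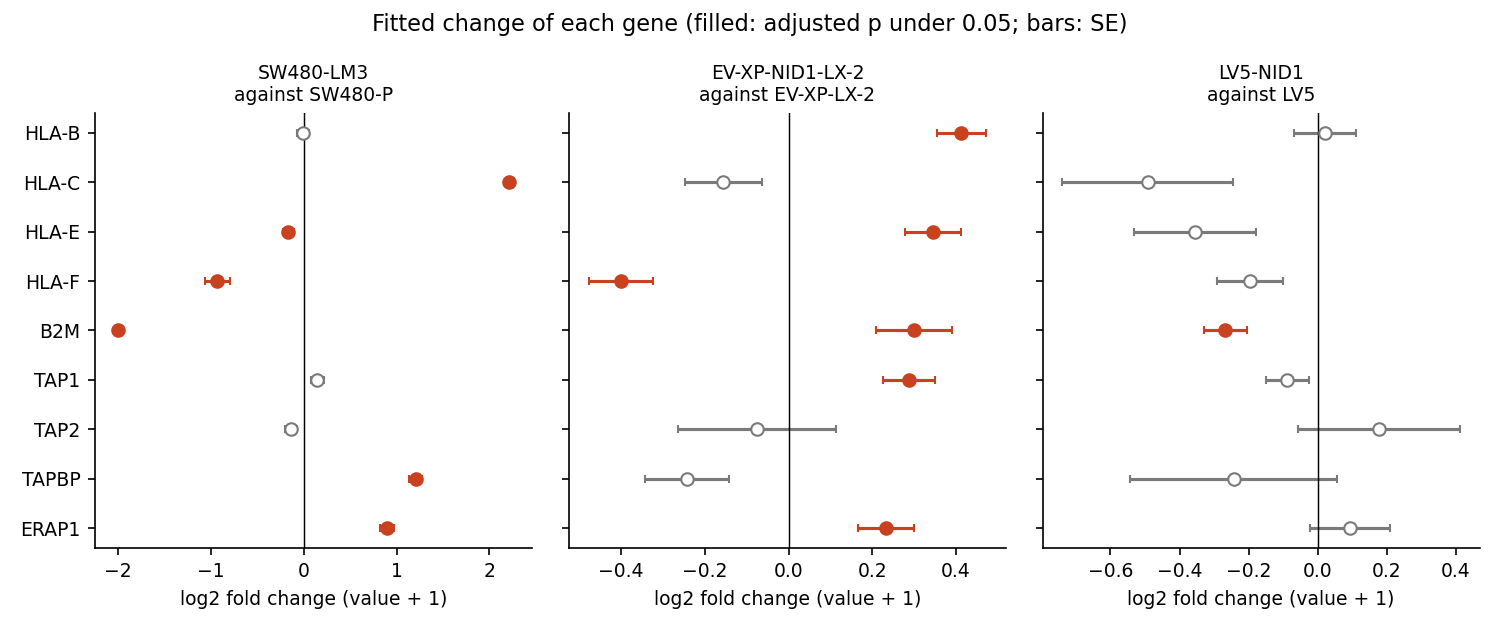
Fitted log2 fold change of each gene on the log2(value + 1) scale in the 3 comparisons, with bars of 1 SE and filled points where the adjusted p was under 0.05. The horizontal axes differ: SW480-LM3 spans -2.004 (B2M) to 2.21 (HLA-C), while EV-XP-NID1-LX-2 spans -0.40 (HLA-F) to 0.41 (HLA-B).

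The rest of the pathway in SW480-LM3 was described with gene lists. Among 8 peptide loading and editing genes, 3 rose, 4 fell and ERAP2 was not called (5.59 ± 0.374 against 5.68 ± 0.348). The second peptide editor TAPBPL rose from 1.93 ± 0.138 to 10.3 ± 0.154 and PDIA3 from 334 ± 4.12 to 473 ± 4.44. The chaperone calnexin (CANX) fell by 1.11 on the log2 scale, to 765 ± 10.5. CANX was called in all 16 alternative settings, but its log2 fold change ranged from -1.13 to -0.195. The chaperone HSPA5 fell from 759 ± 21.7 to 542 ± 7.03, but quantile normalization turned its log2 fold change from -0.48 to 0.03. All 3 constitutive catalytic proteasome subunits fell, PSMB7 most, from 754 ± 21.5 to 123 ± 4.77 (log2 fold change -2.61), with PSMB5 at -1.43 and PSMB6 at -0.96. Of 5 interferon-inducible proteasome genes, PSMB8 (-0.71), PSMB9 (-1.09), PSMB10 (-0.26) and the activator subunit PSME2 (-0.71) fell and PSME1 rose by 0.12 (adjusted p = 0.0324, called in 11 of 16 alternative settings), although PSMB10 turned to 0.02 with library-total scaling. As ratios read only as changes within the table, PSMB8 over PSMB5 went from 0.221 ± 0.0129 to 0.362 ± 0.0172 and PSMB10 over PSMB7 from 0.0533 ± 0.00254 to 0.273 ± 0.0186, both higher without overlap, and PSMB9 over PSMB6 overlapped. PSMB9 fell, from 11.5 ± 2.11 to 4.90 ± 1.28, where its neighbour TAP1 was not called.

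Of 17 regulators of class I gene transcription, 9 rose and 8 fell. They include the Polycomb repressor subunits EZH2, which rose, and EED and SUZ12, which fell. STAT2 rose from 13.8 ± 1.66 to 57.4 ± 1.21 (log2 fold change 1.99) and IRF1 rose from 10.2 ± 1.38 to 32.3 ± 3.50 (1.57). NLRC5, the class I transactivator, fell from 13.9 ± 0.554 to 4.69 ± 1.35 (-1.41), and the NF-Y subunit NFYB fell from 73.8 ± 5.67 to 27.1 ± 1.62 (-1.41). Of 9 interferon receptor and signalling genes tested, 2 rose and 5 fell. Among them the kinase TYK2 was at 1.48 and the kinase JAK2 at -1.56. The type I interferon receptor subunit IFNAR2 was at -1.49 and the feedback inhibitor SOCS3 at -1.62.

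Class I quality control genes, known to mark class I molecules for degradation or to alter their display, mostly rose in SW480-LM3. Of 11 tested, 10 rose and none fell, where 43.9% of all genes tested were called higher and 43.9% lower. Their median log2 fold change was 1.14 against -0.004 over all genes. The list was chosen with earlier results of these data known, so the count is only a description. The ubiquitin ligase WWP2 rose from 16.6 ± 1.11 to 165 ± 7.83 (3.24) and its partner SUSD6, listed as KIAA0247, from 7.39 ± 0.747 to 22.8 ± 1.33 (1.51). The ligase SYVN1 of the endoplasmic reticulum rose by 2.04 and the protease SPPL3 by 1.36. Among 4 class I-like genes, FCGRT, the neonatal Fc receptor, which pairs with B2M, rose from 2.83 ± 0.593 to 47.5 ± 1.21, and the iron regulator HFE, which also pairs with B2M, fell from 28.5 ± 1.88 to 17.3 ± 1.50. AZGP1, a secreted class I-like protein, rose from 0.314 ± 0.0699 to 78.6 ± 3.71, while MR1 was not called. Of 12 ligands of NK cell receptors, 5 rose and 7 fell: MICA fell from 33.4 ± 2.77 to 6.81 ± 1.42 and RAET1E from 5.76 ± 0.455 to 0.189 ± 0.0243, and NECTIN2, listed as PVRL2, rose from 17.4 ± 1.36 to 89.9 ± 5.63 and RAET1L from 0.724 ± 0.211 to 5.96 ± 0.519. Epithelial markers moved in the same comparison, 7 of 8 higher, with their summed signal going from 3522 to 3790 in SW480-P to 13192 to 13907 in SW480-LM3, and their part in these differences was not tested.

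In LX-2 cells 5 of the 9 genes rose, 1 fell and 3 were not called, each of these 3 with a negative log2 fold change. After vesicles carrying NID1, the heavy chains HLA-B and HLA-E, B2M, TAP1 and ERAP1 rose, HLA-F fell, and HLA-C, TAP2 and TAPBP were not called. The background there was 42.3% of 15802 genes called, 17.8% higher and 24.6% lower, and the median log2 fold change was 0.23 for the 9 genes and -0.05 for all genes. Libraries of the 2 groups did not overlap for 8 of the 9 genes, 5 above and 3 below, against 55.9% of all genes, 23.4% above and 32.5% below. None of the 9 reached 1 on the log2 scale.

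HLA-B, the heavy chain with the highest listed value in LX-2 cells, was at 722, 634 and 679 TPM with control vesicles. It was at 939, 870 and 899 TPM with NID1 vesicles. The 2 groups did not overlap, and HLA-B rose 1.33-fold (log2 fold change 0.41, SE 0.06, adjusted p = 0.00186), a call kept in 15 of 15 alternative settings. HLA-E was at 137, 140 and 140 TPM against 191, 160 and 181 TPM, again apart, and rose 1.28-fold (0.35, SE 0.07, adjusted p = 0.00612), also called in 15 of 15. HLA-F went the other way, from 25.1, 27.6 and 29.2 TPM to 21.7, 19.3 and 20.3 TPM. It fell by 0.40 on the log2 scale (SE 0.08, adjusted p = 0.00591), called in 15 of 15 settings. HLA-C had the lowest listed values of the 9, at 5.07, 5.76 and 5.78 TPM against 5.01, 4.59 and 4.99 TPM. It was not called (log2 fold change -0.16, SE 0.09, adjusted p = 0.214). The pseudogene HLA-L fell from 4.203 ± 0.332 to 2.35 ± 0.0611 TPM.

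B2M was at 2715, 2760 and 2845 TPM with control vesicles and 3099, 3953 and 3243 TPM with NID1 vesicles. All 3 NID1 vesicle libraries were above the controls, with replicate 2 well above the other 2. B2M rose 1.24-fold (log2 fold change 0.30, SE 0.09, adjusted p = 0.0334), but the call held in only 8 of 15 alternative settings, with adjusted p from 0.00589 to 0.125. It was lost when EV-XP-LX-2 replicate 1, 2 or 3 was left out, at adjusted p of 0.0973, 0.0821 and 0.0685. The B2M call was also lost with no filter on low values, no variance trend, median-ratio scaling and TPM rescaled without mitochondrial genes. Summed over HLA-B, HLA-C, HLA-E and HLA-F, heavy-chain transcripts were 890, 808 and 854 TPM in controls and 1157, 1054 and 1106 TPM after NID1 vesicles. B2M per summed heavy chain was 3.27 ± 0.191 in controls and 3.12 ± 0.560 after NID1 vesicles, with overlapping libraries. HLA-B made up 79.7% ± 1.36 of that sum in controls and 81.7% ± 0.750 after NID1 vesicles. That share rests on how reads were divided between the heavy chains, which is not known.

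**Figure D3:**
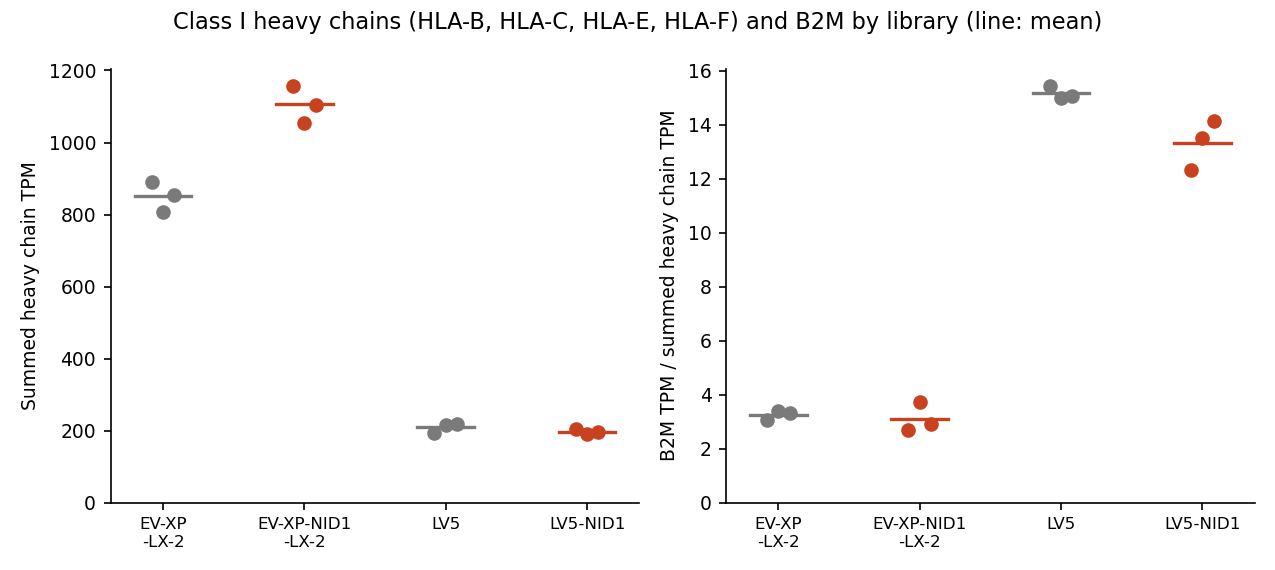
Summed TPM of the heavy chains HLA-B, HLA-C, HLA-E and HLA-F (left) and B2M TPM divided by that sum (right) in each LX-2 and LV5 library, with lines at group means. The sum is higher in all 3 libraries with NID1 vesicles (1054 to 1157 TPM against 808 to 890), and the ratio is lower in LV5-NID1 (13.3 ± 0.927) than in LV5 (15.2 ± 0.248).

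Among the transport and trimming genes, TAP1 was at 53.5, 56.4 and 52.2 TPM in controls and 70.5, 61.8 and 66.4 TPM after NID1 vesicles. TAP1 rose 1.23-fold (log2 fold change 0.29, SE 0.06, adjusted p = 0.00924), with no overlap and in 15 of 15 alternative settings. Its partner TAP2 was at 18.7, 21.1 and 21.6 TPM against 19.2, 14.4 and 26.2 TPM, spread too widely for a call (-0.08, SE 0.19, adjusted p = 0.779). Its direction turned to 0.13 without EV-XP-NID1-LX-2 replicate 2. ERAP1 was at 24.4, 22.7 and 22.4 TPM against 27.8, 25.7 and 28.8 TPM and rose 1.18-fold (0.23, SE 0.07, adjusted p = 0.0275). The ERAP1 call was lost on leaving out replicate 2 (adjusted p = 0.0876) or 3 (0.0964) of EV-XP-LX-2, or replicate 1 (0.0725) or 3 (0.0868) of EV-XP-NID1-LX-2. ERAP2, the related trimming peptidase, fell from 19.5 ± 0.960 to 13.7 ± 0.837 TPM (log2 fold change -0.48, adjusted p = 0.00231), opposite to ERAP1. TAPBP was at 34.8, 32.7 and 31.2 TPM against 30.3, 23.6 and 29.5 TPM, lower in each library but not called (-0.24, SE 0.10, adjusted p = 0.090).

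Other pathway genes in LX-2 cells went in both directions. Of 8 peptide loading and editing genes none rose and 4 fell: ERAP2, TAPBPL (from 7.17 ± 0.940 to 4.99 ± 0.679 TPM), UGGT1, which rechecks unfolded glycoproteins (32.6 ± 1.65 to 24.0 ± 4.33), and CALR (481 ± 15.6 to 420 ± 24.1). Of the interferon-inducible proteasome genes, PSMB9 fell from 27.5 ± 0.419 to 21.8 ± 0.652 TPM, PSMB10 fell from 21.8 ± 0.121 to 17.3 ± 2.98 TPM and PSME1 fell from 270 ± 4.19 to 218 ± 3.96 TPM. PSMB8 was not called (69.6 ± 1.22 and 67.0 ± 1.57 TPM), and PSME2 rose from 328 ± 0.956 to 397 ± 5.74 TPM. The constitutive counterparts PSMB5, PSMB6 and PSMB7 rose, by 0.30, 0.30 and 0.22 on the log2 scale. The ratio of inducible to constitutive subunit was therefore lower with NID1 vesicles for all 3 pairs, without overlap between libraries: PSMB8 over PSMB5 went from 0.366 ± 0.00260 to 0.285 ± 0.0140, PSMB9 over PSMB6 from 0.0955 ± 0.00316 to 0.0613 ± 0.00596, and PSMB10 over PSMB7 from 0.0621 ± 0.000707 to 0.0422 ± 0.00786. TAP1 rose where PSMB9, the gene that overlaps it in the annotation, fell (log2 fold change -0.33, adjusted p = 0.00331).

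Among 17 regulators of class I gene transcription in LX-2 cells, 6 rose, 2 fell and 9 were not called. The Polycomb repressor subunits EED and SUZ12 were among those that rose. IRF1 rose from 81.1 ± 2.03 to 114 ± 7.43 TPM (0.49, adjusted p = 0.000931) and NFYB from 47.0 ± 2.41 to 79.2 ± 9.72 TPM (0.74). RFX5, the DNA-binding subunit of RFX, fell from 45.3 ± 1.65 to 25.6 ± 2.36 TPM (-0.80). NLRC5 was at 13.1 ± 0.348 and 12.6 ± 0.940 TPM and was not called. Of 9 interferon receptor and signalling genes, the receptor subunits IFNGR1 (-0.20) and IFNAR2 (-0.34) fell and the phosphatase PTPN2 rose (0.21). Of 3 B2M partners MR1, which presents vitamin metabolites, rose from 7.77 ± 0.501 to 13.7 ± 0.799 TPM, FCGRT fell from 13.4 ± 0.951 to 8.82 ± 1.36 TPM, and HFE was not called. Of 11 ligands of NK cell receptors, 3 rose and none fell: ULBP2 from 58.2 ± 3.34 to 101 ± 3.59 TPM, ULBP3 from 10.9 ± 0.892 to 15.3 ± 1.91 TPM, and NCR3LG1 from 3.94 ± 0.153 to 6.95 ± 0.761 TPM. Of 12 quality control genes, SYVN1, IRGQ and MARCH4 fell. Several of these calls sat near the threshold: PSMB10 was called in 6 of 15 alternative settings, IRGQ in 9, CALR and TAPBPL in 10, and UGGT1, PTPN2 and MARCH4 in 11. The stellate markers moved in the same comparison, 5 of 10 lower, with a summed level of 674 to 700 TPM in controls and 551 to 637 TPM after NID1 vesicles, and their part in the class I differences was not tested.

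**Figure D4:**
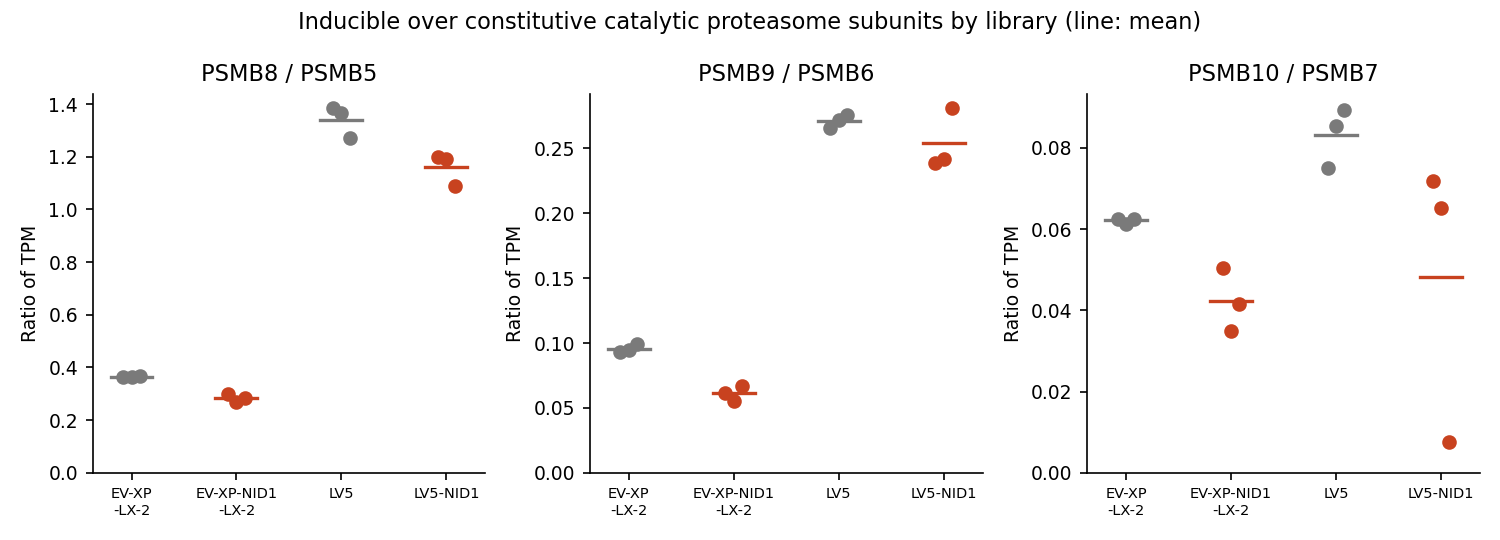
TPM of each interferon-inducible catalytic proteasome subunit divided by that of its constitutive counterpart, in every LX-2 and LV5 library, with lines at group means. All 3 ratios are lower in the 3 EV-XP-NID1-LX-2 libraries than in the 3 EV-XP-LX-2 libraries, and the PSMB10 ratio of LV5-NID1 replicate 3 is 0.00764.

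In SW480 cells overexpressing NID1 under GW4869, only B2M among the 9 genes passed the test, and it fell. The background was 16.6% of 15508 genes called, 7.27% higher and 9.32% lower, so 1 call of 9 is near that share. Libraries did not overlap for 2 of the 9, both lower, against 43.3% of all genes, 21.7% above and 21.6% below. The median log2 fold change was -0.20 for the 9 genes and 0.006 for all genes. B2M was at 2970, 3235 and 3305 TPM in LV5 and 2540, 2576 and 2784 TPM in LV5-NID1. The 3 LV5-NID1 libraries lay below all 3 LV5 libraries, a ratio of 0.831 with a log2 fold change of -0.27 (SE 0.06, adjusted p = 0.0374). The call held in 8 of 15 alternative settings (adjusted p from 0.00183 to 0.138). It was lost on leaving out LV5 replicate 1, 2 or 3 (adjusted p = 0.0579, 0.127 and 0.115) or LV5-NID1 replicate 1 or 2 (0.0871 and 0.121), and kept without LV5-NID1 replicate 3 (-0.31, adjusted p = 0.0145).

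The heavy chains of LV5-NID1 were not called. HLA-B was at 124, 142 and 151 TPM in LV5 and 139, 132 and 150 TPM in LV5-NID1, wholly overlapping (log2 fold change 0.02, SE 0.09, adjusted p = 0.889). HLA-E was at 41.7, 46.3 and 41.9 TPM against 40, 37.7 and 25.0 TPM, with every LV5-NID1 library lower and replicate 3 lowest. Its log2 fold change was -0.36 (SE 0.18, adjusted p = 0.208), and -0.15 without replicate 3. HLA-F was at 24.8, 25.4 and 24.3 TPM against 24.8, 19.5 and 20.7 TPM (-0.20, SE 0.10, adjusted p = 0.200). HLA-C was at 1.98, 2.55 and 2.44 TPM against 2.20, 1.48 and 0.65 TPM (-0.49, SE 0.25, adjusted p = 0.214), and -0.23 without replicate 3. Summed over HLA-B, HLA-C, HLA-E and HLA-F, heavy-chain transcripts were 209 ± 14.8 TPM in LV5 and 198 ± 7.77 TPM in LV5-NID1, which overlapped. B2M per summed heavy chain was 15.4, 15.0 and 15.1 in LV5 and 12.3, 13.5 and 14.2 in LV5-NID1, lower in every library.

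Of the loading genes, TAP1 was at 45.0, 48.5 and 47.3 TPM in LV5 and 42.3, 43.3 and 46.8 TPM in LV5-NID1 (-0.09, SE 0.06, adjusted p = 0.351). TAP2 was at 25.6, 26.8 and 28.5 TPM against 20.4, 38.1 and 36.7 TPM. Its LV5-NID1 libraries fell on both sides of the controls (0.18, SE 0.23, adjusted p = 0.622), and without LV5-NID1 replicate 1 it was called higher (0.46, adjusted p = 0.0265). TAPBP was at 5.67, 6.29 and 5.33 TPM against 6.32, 6.28 and 2.48 TPM (-0.24, SE 0.30, adjusted p = 0.590), and leaving out replicate 3 turned it to 0.11. ERAP1 was at 11.7, 12.5 and 10.2 TPM against 10.6, 12.7 and 13.6 TPM (0.09, SE 0.12, adjusted p = 0.600). LV5-NID1 replicate 3 was the lowest of all 6 libraries for 3 of the 9 genes, HLA-C, HLA-E and TAPBP. It also held 3.37 TPM of PSMB10 against 28.2 and 25.9 TPM in replicates 1 and 2.

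Around these genes in LV5-NID1, CALR fell from 391 ± 13.2 to 263 ± 6.92 TPM (log2 fold change -0.57, adjusted p = 0.00202), PDIA3 from 266 ± 11.3 to 218 ± 11.3 TPM (-0.28) and HSPA5 from 253 ± 6.86 to 218 ± 2.28 TPM (-0.21). These were 3 of 7 loading and editing genes tested, and none rose. PSMB8 fell from 140 ± 3.997 to 116 ± 2.79 TPM (-0.27, adjusted p = 0.0174) and PSME1 from 138 ± 3.04 to 115 ± 2.87 TPM (-0.26, adjusted p = 0.0175), while PSMB9 (39.5 ± 2.08 and 32.2 ± 3.71 TPM), PSMB10 and PSME2 were not called. Of the constitutive subunits PSMB6 fell (-0.20, adjusted p = 0.0461) and PSMB5 and PSMB7 were not called. PSMB8 over PSMB5 went from 1.34 ± 0.0597 to 1.16 ± 0.0620 with no overlap, while PSMB9 over PSMB6 overlapped. PSMB10 over PSMB7 was 0.0750, 0.0854 and 0.0893 in LV5 and 0.0718, 0.0653 and 0.00764 in LV5-NID1, lower in every library, with replicate 3 far below the other 2. Of 17 regulators of class I gene transcription, RFXAP (0.39) and NFYA (0.45) rose and the Polycomb repressor subunit EED fell (-0.29). The other 14, NLRC5 and IRF1 among them, were not called. Of 9 interferon receptor and signalling genes only the kinase JAK1 fell (-0.29). Of 10 ligands of NK cell receptors NCR3LG1 rose (0.54) and NECTIN2 fell (-0.55). B3GNT5, a glycosphingolipid synthase known to alter class I display, was the 1 of 11 quality control genes that rose (0.33, adjusted p = 0.0315), and none fell. CALR was called in 15 of 15 alternative settings, NECTIN2 in 13, NCR3LG1 in 12, NFYA in 10, and RFXAP, PSMB8 and PSME1 in 9. B3GNT5 was called in only 8, PDIA3, HSPA5 and EED in 7, JAK1 in 6 and PSMB6 in 5. Epithelial markers moved in the same comparison, 3 of 4 tested lower and 1 higher: KRT8 fell from 780 ± 17.2 to 411 ± 32.3 TPM, KRT18 and KRT19 also fell, and EPCAM rose from 5.03 ± 0.750 to 9.05 ± 0.604 TPM (adjusted p = 0.0118). Their summed level was 1633 to 1673 TPM in LV5 and 927 to 988 TPM in LV5-NID1, and their part was not tested.

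Set side by side, no gene of the 9 was called in the same direction in all 3 comparisons, which share no libraries. B2M was the 1 gene called in each, with log2 fold changes of -2.004 in SW480-LM3, 0.30 in EV-XP-NID1-LX-2 and -0.27 in LV5-NID1. HLA-F was lower in all 3 (-0.93, -0.40 and -0.20), but the last did not pass the test. HLA-C was called only in SW480-LM3, at 2.21 against -0.16 and -0.49 in the other tables, and whether the comparisons differ was not tested because the tables differ in unit. ERAP1 was higher in all 3 (0.90, 0.23 and 0.09), and the third was not called. Among 7894 genes tested in all 3 tables with a mean of at least 5 in every group, the 5 with fold changes nearest to those of B2M, by Euclidean distance over the 3 log2 fold changes, were FTL (0.0897), ANXA5 (0.146), RND3 (0.150), NME1-NME2 (0.153) and TXN (0.165). FTL, the ferritin light chain, had log2 fold changes of -1.99, 0.22 and -0.30.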

How the data were processed

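The study measured poly(A) RNA in 18 libraries. For SW480-P and SW480-LM3 the authors deposited a signal per gene, in effect reads over 1 factor for each library (100% of values were whole reads within 0.05 read). For the other groups the deposited values are TPM. HISAT2 2.1.0 and Bowtie2 2.3.5 are named, without a role, per the submitters' processing notes. The counter, the build and the gene models were not given in the sources used here. TPM depth is unknown, and recovered reads limit counting precision only in the first table.

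Each table was tested alone with limma 3.58.1 (R 4.3.3, empirical Bayes with a trend) on log2(value + 1), over genes reaching 1 in 3 libraries or more, with Benjamini-Hochberg adjustment over all genes tested and a threshold of 0.05. Such fold changes understate low genes. The script was tested on simulated data. Alternatives were pseudocounts, filters, scalings, no variance trend, a replicate block, each library left out and, on recovered reads, edgeR 4.0.16 and DESeq2 1.42.0. TPM rescaled without mitochondrial genes was added after seeing the data. The 9 genes and all gene lists were chosen with earlier results of these data known. Named genes were the 9, NID1, all of a list of 5 or fewer, and up to 4 called genes with the largest log2 fold change per longer list, with a mean of at least 5 in the higher group. Marker genes, and other genes given for context, fall outside that rule. SDs are over the 3 libraries of a group, and SEs are those limma gave for the fitted difference between 2 groups of 3. Some genes of these lists were counted but are not reported here.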

Additional observations from a re-analysis of the deposited data

How the results depend on the processing

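In the first table HLA-F rested on 62 to 156 reads per library, and genes at lower signals, such as RAET1E in SW480-LM3 and AZGP1, NID1 and HLA-H in SW480-P, rested on fewer. TPM values show no depth. Library-total scaling in SW480-LM3 moved the median of all genes to a log2 fold change of 0.26 and the share of calls that were higher from 50.0% to 58.9%. It turned HLA-B to 0.28, HLA-E to 0.12, TAP2 to 0.14 and PSMB10 to 0.024. With 1 library left out HLA-B ranged from -0.053 to 0.052, and HSPA5 turned to 0.028 with quantile normalization. In EV-XP-NID1-LX-2, quantile normalization turned TAP2 to 0.033 and HLA-H to 0.014, median-ratio scaling turned PSMB8 to 0.0065, and TAP2 ranged from -0.28 to 0.13 with 1 library left out. The share of higher calls there was 41.9%, with 51.1% under quantile normalization and 51.2% under median-ratio scaling. In LV5-NID1, HLA-B was -1.2e-05 without mitochondrial genes and PSMB5 0.029 with quantile normalization. With 1 library left out HLA-B ranged from -0.059 to 0.083, TAPBP from -0.42 to 0.11 and PSMB5 from -0.095 to 0.0010. The share of higher calls was 43.8%, with 54.7% under quantile normalization. The 2572 genes called in LV5-NID1 became 1532 with no filter on low values and 890 with the replicate block. The 1 called class I gene became 0 with no filter and 0 with no variance trend. With 1 library left out, genes called ranged from 12485 to 12563 in SW480-LM3, 4762 to 7132 in EV-XP-NID1-LX-2 and 713 to 3325 in LV5-NID1, and class I genes called from 5 to 8, 4 to 6 and 0 to 1. The cause was not tested. Replicate numbers did not pair the libraries (correlations of same-numbered deviations from -0.0474 to 0.0632), and the replicate block, with 12725 and 5956 genes called in the other tables, changed no call of the 9 genes.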

Other observations

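MHC class II genes, which present extracellular antigen, were listed beside the class I genes. LX-2 cells held HLA-DPB1 at 44.0 ± 3.88 TPM and HLA-DPA1 at 16.1 ± 3.15 TPM in controls (SD, n = 3), and 48.2 ± 5.29 and 17.5 ± 2.13 TPM after NID1 vesicles, with no call in limma (adjusted p = 0.317 and 0.534). In the same control libraries HLA-DRA was at 0.0667 ± 0.0833 TPM, the class II transactivator CIITA at 0.247 ± 0.0473 TPM and the invariant chain CD74 at 0.290 ± 0.161 TPM. The other chains listed were lower than the DP pair, HLA-DRB1 at 0.477 ± 0.0379, HLA-DQA1 at 0.01 ± 0.0173 and HLA-DQB1 at 0.0733 ± 0.0702 TPM. In LV5 the mean was 0.05 ± 0.0866 TPM for HLA-DPA1 and 0.00333 ± 0.00577 TPM for HLA-DPB1. HLA-DMA, the class II peptide editor, fell from 4.12 ± 0.639 to 2.23 ± 0.144 TPM in LV5-NID1 (adjusted p = 0.0186). In SW480-LM3, CTSS, the protease that cuts the invariant chain, fell from 10.1 ± 2.09 to 0.824 ± 0.395 and HLA-DQB1 rose from 4.19 ± 0.323 to 8.79 ± 0.907. These class II genes were singled out after their values were seen.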
